A study of Homo sapiens with 12 samples.

Results

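The genes of RNA polymerase II subunits were followed across 12 total-RNA libraries of SH-SY5Y cells. The 10 genes POLR2A, POLR2B, POLR2C, POLR2D, POLR2E, POLR2F, POLR2G, POLR2H, POLR2I and POLR2K were listed by name, and all 10 were found among the 55765 gene symbols counted. They were listed because POLR2A had been seen to differ strongly among the pre-treatment libraries, so their pre-treatment values are given as a description without p-values. Counts of members called in pre-treatment appear only to show how calls depend on the processing and are no evidence about the members. The co-treatment libraries played no part in that choice.

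SH-SY5Y is a subline of SK-N-SH, a human neuroblastoma line grown from bone marrow, and it takes on neuron-like features when given all-trans retinoic acid (ATRA). In the co-treatment experiment, 3 treated cultures received H2O2 together with 10 μM ATRA for 7 days, and 3 control cultures received ATRA without H2O2. In the pre-treatment experiment, exposure to H2O2 lasted 72 h in 3 treated cultures and ended before ATRA was given for 7 days, and 3 control cultures went through the same differentiation with no H2O2. All 4 groups therefore carried ATRA, including the controls that the labels call untreated, and the H2O2 concentration is 10 mM in the deposited description but 10 μM in the study's methods. All cultures came from 1 tumour line. A p-value sets a difference between groups against the spread between these samples, and it does not extend to other cell lines.

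RNA polymerase II transcribes the messenger RNAs of nuclear genes and many small nuclear RNAs. POLR2A and POLR2B encode the largest subunits, which together form the active site, and POLR2A also carries the repeated C-terminal domain that is phosphorylated as the enzyme starts, elongates and ends a transcript. POLR2C nucleates assembly, POLR2D and POLR2G form the stalk, POLR2I serves transcript cleavage and fidelity, and POLR2E, POLR2F, POLR2H and POLR2K are shared with RNA polymerases I and III.

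The promoters of POLR2A and POLR2B, the partners in the active site whose counts parted in the pre-treatment libraries, are shown for reference. Each line holds the 250 bases before the RefSeq start site, read 5′ to 3′ on the plus strand and placed on GRCh37 (hg19) by exact match, with the letters GGGCGG (the GC box) in capitals.
POLR2A, chr17:7387435-7387684: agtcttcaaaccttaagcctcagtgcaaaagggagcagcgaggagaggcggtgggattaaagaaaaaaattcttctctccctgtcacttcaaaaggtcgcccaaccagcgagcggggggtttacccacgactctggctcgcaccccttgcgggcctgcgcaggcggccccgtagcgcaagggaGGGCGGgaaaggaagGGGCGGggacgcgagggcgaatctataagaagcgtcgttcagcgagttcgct
POLR2B, chr4:57844812-57845061: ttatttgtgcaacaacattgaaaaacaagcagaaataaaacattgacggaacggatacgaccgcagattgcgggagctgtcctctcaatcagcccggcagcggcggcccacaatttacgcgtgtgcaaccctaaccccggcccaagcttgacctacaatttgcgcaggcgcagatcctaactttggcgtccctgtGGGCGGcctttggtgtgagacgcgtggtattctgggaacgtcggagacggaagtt
The POLR2A promoter held 2 GC boxes and the POLR2B promoter 1. Neither held CCAAT or TATAAA on either strand. Among the other members with a promoter entry, GC boxes ran from 0 (POLR2C and POLR2F) to 3 (POLR2H), and none held CCAAT or TATAAA. A link between these motifs and the levels was not tested. The POLR2B stretch lies inside the annotated span of the gene, which starts further upstream. Over 27305 RefSeq promoters of this length, 42.3% held GGGCGG, 33% held CCAAT and 11.1% held TATAAA on at least 1 strand. Matches of different motifs can share end letters and were counted separately.

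Reads assigned to genes numbered 27576276 to 98287391 per library. Pre-treatment control replicate 3 stood apart from the other 2 controls, with a chi-square per degree of freedom of 613 and 566 against replicates 1 and 2, which differed from each other by 44.7. Replicates 1 and 2 had 0.800 and 0.830 reads outside genes for each read on a gene, against 0.200 in replicate 3, 0.343 to 0.462 in the pre-treatment treated libraries and 0.263 to 0.429 in the co-treatment libraries. Small-RNA loci took 1.62% and 2.91% of counted reads in replicates 1 and 2, against 17.6% in replicate 3, 13.3% to 15.1% in the treated libraries and 5.08% to 13.1% in the co-treatment libraries. Of 9 sympathetic neuroblast markers, 8 reached 1 CPM (read counts scaled to library size with TMM factors) in every library, and TH, the enzyme of catecholamine synthesis, did not. The summed level of this list ran from 3268 to 3707 CPM in co-treatment controls, 2246 to 2971 in co-treatment treated, 2285 to 3671 in pre-treatment controls and 1926 to 2480 in pre-treatment treated libraries. Of 7 mesenchymal-type markers, 4 reached 1 CPM in all libraries, with sums of 257 to 423 CPM and PRRX1 below 0.1 CPM. The 5 epithelial markers summed to at most 5.11 CPM and the 5 blood markers to at most 0.908 CPM in any library.

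POLR2A (chr17:7387685-7417933, plus strand, 30 exons, with no annotated gene overlapping it) differed among the libraries more than any other member. In the pre-treatment experiment its level was 299, 379.9 and 45.7 CPM in control replicates 1, 2 and 3, from 16702, 17593 and 2921 reads. In the treated libraries it was 35.1, 52.0 and 64.8 CPM, from 3301, 3501 and 5074 reads. Control replicates 1 and 2 were far above every other library, while control replicate 3 lay within the treated range, so the groups overlapped. In the co-treatment experiment the level was 64.3, 39.3 and 50.4 CPM in controls and 58.2, 69.9 and 74.8 CPM in treated libraries, and these groups overlapped as well. In bulk RNA, fewer cells with a transcript and less of it per cell cannot be told apart.

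**Figure D1:**
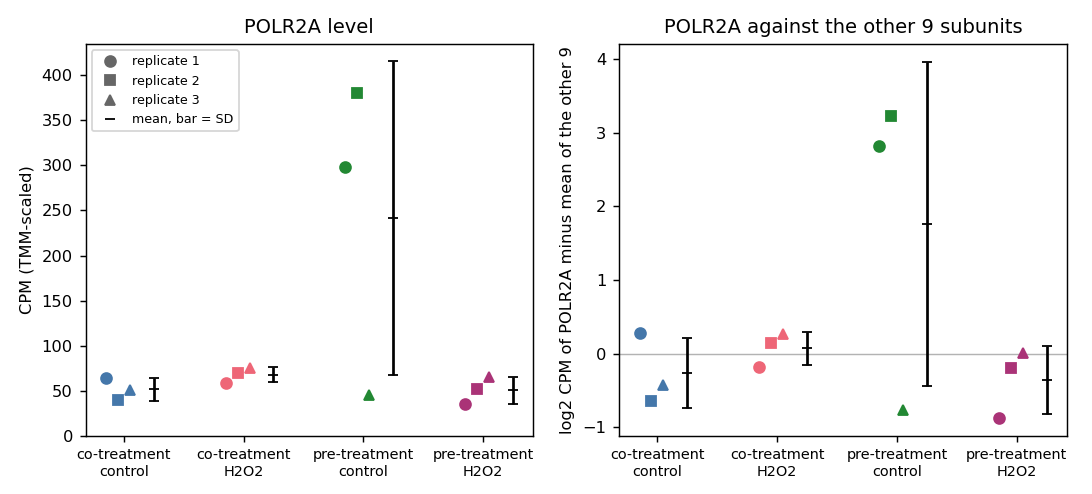
POLR2A level (left, CPM on a linear axis from 0) and its log2 CPM minus the mean log2 CPM of the other 9 members (right) in the 12 libraries by group, with 1 symbol per replicate and a bar for the group mean and SD. Pre-treatment control replicates 1 and 2 sit at 299 and 379.9 CPM and at 2.82 and 3.23 on the right, and the other 10 libraries lie between 35.1 and 74.8 CPM.

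The mean pre-treatment level of POLR2A was 241 ± 174 CPM in controls and 50.6 ± 14.9 CPM in treated libraries (SD, n = 3 each), a log2 fold change, treated against control, of -2.25 with a standard error of 0.65, or 4.77-fold higher in controls. Of 24743 genes tested, 81 had a lower fold change, but POLR2A was chosen on these libraries, so its rank is no evidence about it. Without control replicate 3 the log2 fold change was -2.72 (standard error 0.23), or 6.60-fold higher in controls, and against control replicate 3 alone it was 0.15. Leaving out 1 library at a time gave values from -2.72 to -1.79. The direction therefore turned only when control replicates 1 and 2 were both left out. The reads outside genes and the small-RNA share given above moved with these levels, and their part in the result was not tested.

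The partner subunit POLR2B (chr4:57843888-57897324, plus strand, 25 exons) had the reverse order in the same libraries. Its level was 205, 183 and 334 CPM in pre-treatment controls and 306, 282 and 291 CPM in treated libraries. Control replicates 1 and 2 were the lowest of the 6 and replicate 3 was the highest. In the co-treatment experiment POLR2B was at 231, 277 and 309.5 CPM in controls and 294.5, 333 and 281 CPM in treated libraries, where the groups overlapped.

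POLR2C (chr16:57496572-57505921), the assembly subunit, was at 82.8, 73.5 and 149.7 CPM in pre-treatment controls and at 119, 107 and 105 CPM in treated libraries. Here too the controls lay on both sides of the treated libraries. The stalk subunit POLR2G (chr11:62529037-62534182) followed the same order, with 57.0, 52.1 and 119 CPM in controls and 99.99, 90.3 and 84.2 CPM in treated libraries. Its stalk partner POLR2D (chr2:128601127-128615729, minus strand) was the steadiest member, at 44.2, 48.9 and 60.1 CPM in controls and 51.1, 48.2 and 59.6 CPM in treated libraries. POLR2D control replicate 2 was not among the 2 lowest libraries, in contrast to POLR2G. POLR2I (chr19:36604611-36606115, minus strand), the cleavage and fidelity subunit, had the lowest CPM of the members, with 7.96, 9.22 and 18.7 in controls and 14.0, 13.4 and 15.3 in treated libraries.

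Among the subunits shared by the 3 nuclear polymerases, POLR2E (chr19:1086573-1095379, minus strand) was at 50.9, 54.6 and 106 CPM in pre-treatment controls and between 66.7 and 69.7 CPM in treated libraries. POLR2F (chr22:38348614-38437922) was at 12.3, 11.7 and 24.7 CPM in controls and between 18.8 and 25.8 CPM in treated libraries. POLR2H (chr3:184079498-184086384) was at 35.8, 33.4 and 62.1 CPM in controls and between 52.0 and 53.3 CPM in treated libraries. Each of these 3 genes was lowest in control replicates 1 and 2. POLR2K was at 55.3, 43.4 and 95.5 CPM in controls and between 77.2 and 95.0 CPM in treated libraries, again with replicates 1 and 2 at the bottom.

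Control replicates 1 and 2 were thus the 2 lowest of the 6 pre-treatment libraries for 8 of the 10 members, all but POLR2A and POLR2D, as they were for 25.3% of all genes tested. They were the 2 highest for POLR2A alone among the members, and for 25.3% of all genes. The pre-treatment groups overlapped for all 10 members, whereas they did not overlap for 16.3% of all genes. Over the 12 libraries the SD of log2 CPM was 1.10 for POLR2A and 0.17 to 0.35 for the other 9 members.

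**Figure D2:**
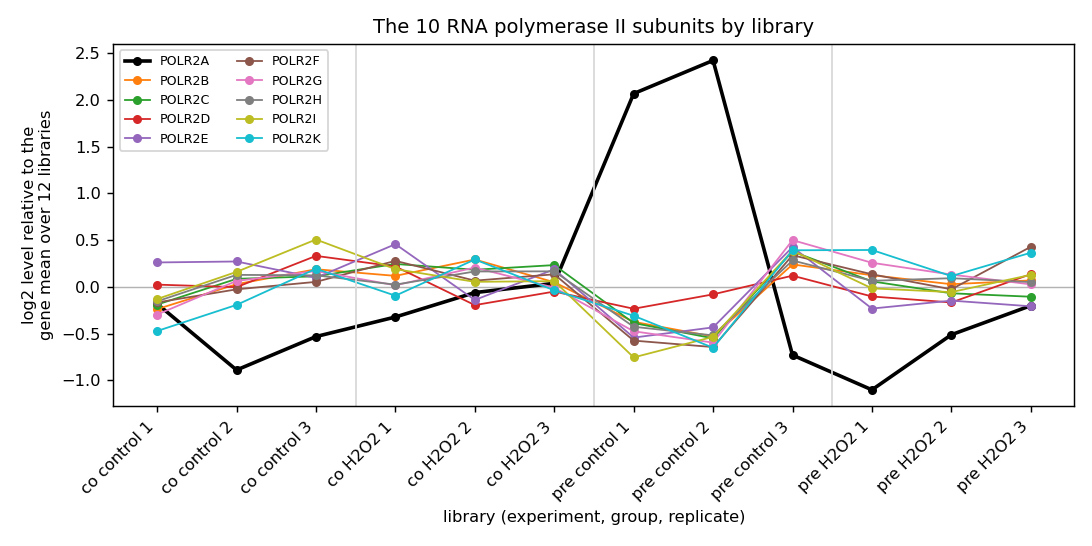
Log2 level of each of the 10 members relative to its own mean over the 12 libraries, by library, with lines that join the values of 1 gene and carry no order among replicates. POLR2A rises above all other members in pre-treatment control replicates 1 and 2, where 8 of the other 9 (all but POLR2D) are among their 3 lowest values.

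The ratio of POLR2A to the other 9 members within a library does not depend on how libraries are scaled to each other. POLR2A stood at 7.07 and 9.37 times the geometric mean CPM of the other 9 in pre-treatment control replicates 1 and 2, and at 0.588 times in replicate 3. In the pre-treatment treated libraries it stood at 0.546, 0.872 and 1.00 times. The co-treatment controls gave 1.21, 0.641 and 0.745 times and the treated libraries 0.883, 1.10 and 1.20 times. Only pre-treatment control replicates 1 and 2 lay outside the range of 0.546 to 1.21 held by the other 10 libraries. On the log2 scale the mean ratio was 1.76 ± 2.20 in pre-treatment controls, -0.35 ± 0.46 in pre-treatment treated, -0.26 ± 0.48 in co-treatment controls and 0.07 ± 0.23 in co-treatment treated libraries (SD, n = 3 each).

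Levels of different subunits were compared as CPM per kilobase of the canonical spliced transcript, 6304 bases for POLR2A, 3785 for POLR2B and from 443 (POLR2I) to 5038 (POLR2D) for the others. By group, POLR2A was highest in pre-treatment controls at 39.3 ± 28.8 CPM per kilobase, followed by co-treatment treated libraries at 10.8 ± 1.35, co-treatment controls at 8.19 ± 1.99 and pre-treatment treated libraries at 7.89 ± 2.36 (SD, n = 3 each). Each of these groups overlapped its neighbour in that order. Within a library, POLR2A ranked 4th and 2nd from the top of the 10 members in pre-treatment control replicates 1 and 2, and 8th to 10th in every other library. With the length of all annotated exons together in place of the transcript, it ranked 1st in both of those libraries and 9th in the other 10.

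POLR2A and POLR2B take part in the enzyme as 1 protein copy each, but RNA levels per kilobase do not measure protein copies. Their levels per kilobase were 48.7 and 55.7 in pre-treatment control replicate 1 and 62.3 and 49.95 in replicate 2, so that POLR2A came to 87.4% and 125% of POLR2B. In the other 10 libraries POLR2A came to between 6.89% and 16.8% of POLR2B. With the length of all annotated exons, the corresponding shares were 103% and 147% against 8.10% to 19.7%. Per kilobase of canonical transcript POLR2G had the highest group mean of the members in all 4 groups, from 95.9 ± 43.1 in pre-treatment controls to 113.5 ± 9.16 in pre-treatment treated libraries, but with the length of all annotated exons POLR2B was above POLR2G in all 4 groups.

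**Figure D3:**
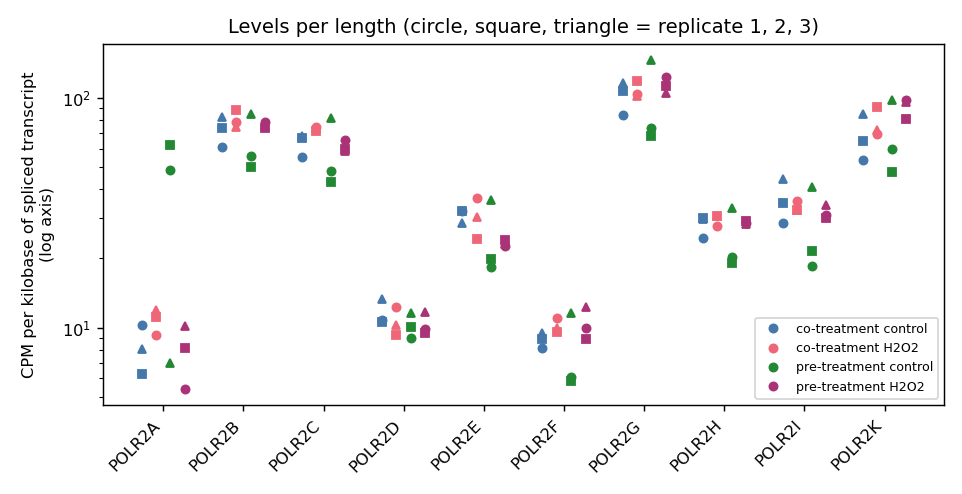
Level of each member per kilobase of its canonical transcript (CPM per kilobase, log axis), with 1 point per library, groups in separate colours and replicates by symbol. POLR2A spans 5.42 to 62.3, with pre-treatment control replicates 1 and 2 at 48.7 and 62.3 and the other 10 libraries at no more than 11.9.

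The co-treatment comparison asks whether these genes differ when H2O2 is present throughout differentiation, and none of the 10 members passed the test. Of 22089 genes tested with edgeR's quasi-likelihood test, 0.598% were called at an adjusted p below 0.05 with an absolute log2 fold change above 0.6, and 0 of the 10 members were. DESeq2 and edgeR's exact test, which each called 1.39% of all genes, also called 0 members, and 1 member, POLR2A, had an unadjusted p below 0.05, against 8.15% of all genes. The mean POLR2A level was 51.3 ± 12.5 CPM in controls and 67.6 ± 8.50 CPM in treated libraries (SD, n = 3 each), a log2 fold change of 0.40 with a standard error of 0.17 and an edgeR adjusted p of 0.570. Leaving out 1 library at a time gave values from 0.23 to 0.59.

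The fold changes of the other 9 members were small in the co-treatment experiment. POLR2C was at 97.2, 117 and 120 CPM in controls and at 131, 126 and 130.1 CPM in treated libraries, a log2 fold change of 0.21 with a standard error of 0.12 and an edgeR adjusted p of 0.742. POLR2F was at 16.7, 18.4 and 19.5 CPM in controls and at 22.7, 19.7 and 20.6 CPM in treated libraries, a log2 fold change of 0.21 with a standard error of 0.13 and an edgeR adjusted p of 0.790. In both genes every treated library was above every control, which made 2 of 10 members without overlap, against 13.9% of all genes in either direction and 6.65% with treated libraries higher. The remaining members ran from a log2 fold change of -0.13 for POLR2D to 0.20 for POLR2K, with standard errors of 0.125 to 0.17. Values for 7 of the 10 members were above 0, as were those of 49.9% of all genes, with a median of 0.12 against -0.00095 over all genes tested, and the edgeR adjusted p of the other 9 lay between 0.742 and 0.990. The signs of POLR2E, POLR2G, POLR2H and POLR2I turned when 1 library was left out, and that of POLR2E also with library size alone as the scaling.

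In the pre-treatment experiment the log2 fold changes of the other 9 members over all 6 libraries ran from -0.06 for POLR2E to 0.44 for POLR2K. Without control replicate 3 all 9 were above 0, from 0.21 for POLR2D to 0.89 for POLR2F, while against control replicate 3 alone all 9 were below 0, from -0.64 for POLR2E to -0.11 for POLR2K. POLR2A went the other way in both cases. These values chose the members, so no p-values are given for them.

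**Figure D4:**
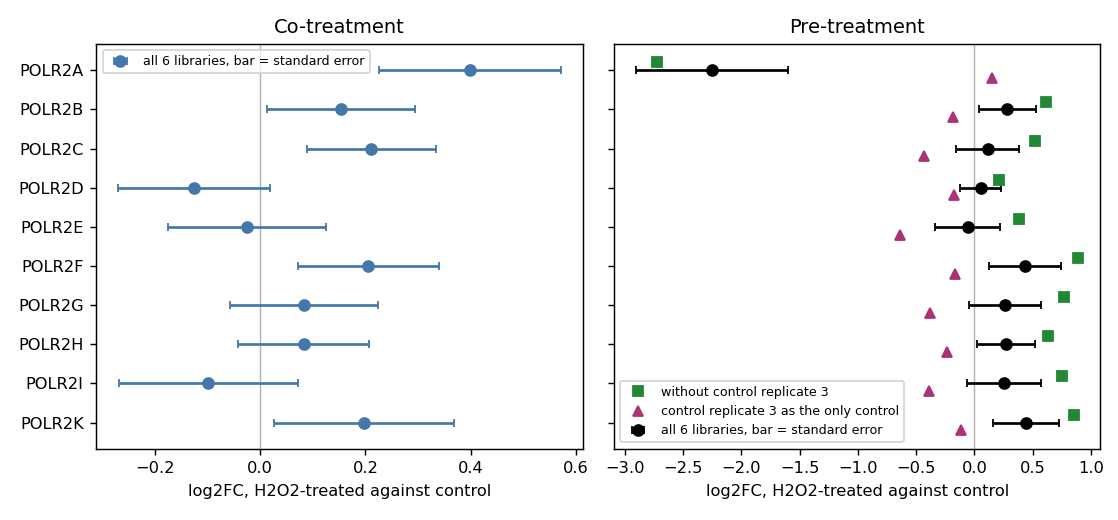
Log2 fold change, treated against control, of each member in the co-treatment experiment and in the pre-treatment experiment with all 6 libraries, without control replicate 3 and with control replicate 3 as the only control, where bars of 1 standard error stand on the fits of all 6 libraries. POLR2A lies at 0.40 in co-treatment and at -2.25, -2.72 and 0.15 in pre-treatment, and the other 9 members lie between -0.64 and 0.89 throughout.

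The 2 Pol II subunit genes that were not listed, POLR2J and POLR2L, had the order of libraries seen for most of the other 9 members. POLR2J, the partner of POLR2C, was at 22.7, 16.3 and 47.8 CPM in pre-treatment controls and at 36.7, 34.6 and 33.8 CPM in treated libraries. POLR2L, a shared subunit, was at 23.5, 26.8 and 52.95 CPM in controls and at 41.0, 34.2 and 27.4 CPM in treated libraries. In both genes control replicates 1 and 2 were the lowest of the 6 and replicate 3 the highest. Reads of POLR2J can also match its near-identical copies POLR2J2, POLR2J3 and POLR2J4, so its level is uncertain. The annotated spans of 6 of the 10 members overlap other genes, and those of POLR2B, POLR2C, POLR2E, POLR2F and POLR2I overlap protein-coding genes on the opposite strand. The strand setting of the counting is not stated, so reads there are uncertain.

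The large subunits of the other polymerases gave a mixed picture. POLR1A, the largest subunit of RNA polymerase I, was at 127, 156 and 64.95 CPM in pre-treatment controls and at 61.4, 61.9 and 81.8 CPM in treated libraries. Control replicates 1 and 2 were the highest of the 6, as for POLR2A, but over a smaller range. POLR1B, its partner, was at 116, 114 and 129 CPM in controls and between 114 and 149 CPM in treated libraries. POLR3A, the largest subunit of RNA polymerase III, was at 87.8, 105 and 74.8 CPM in controls and between 71.8 and 89.1 CPM in treated libraries, and its partner POLR3B was at 12.5, 13.0 and 15.3 CPM against 14.7 to 19.8 CPM. All 4 genes overlapped between the pre-treatment groups.

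The genes whose pattern over the 12 libraries was most like that of POLR2A were found by the root mean square difference of log2 CPM, after each gene was centred on its own mean, among 10938 genes with an average log2 CPM of at least 3. The 5 closest were SRCAP (an ATPase of chromatin remodelling) at 0.168, SOGA1 at 0.181, NFIC (a transcription factor of the nuclear factor I family) at 0.203, KMT2D (a histone H3 lysine 4 methyltransferase) at 0.216 and ZFHX3 (a zinc finger homeobox factor) at 0.230, against a median of 1.12 over all genes compared. The same 5 genes were found with library size alone as the scaling. The other 9 members ranked between 5699 and 10385 in this order.

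SRCAP was at 162, 221 and 26.1 CPM in pre-treatment controls and at 23.3, 31.1 and 46.1 CPM in treated libraries. KMT2D was at 277, 339 and 33.5 CPM in controls and at 31.2, 46.2 and 61.1 CPM in treated libraries. As for POLR2A, control replicates 1 and 2 stood above all other libraries and replicate 3 fell within the treated range. The canonical transcripts of the 5 genes measured 11724 (SRCAP), 14218 (SOGA1), 8029 (NFIC), 20635 (KMT2D) and 15817 (ZFHX3) bases, against a median of 3579 over the 9796 compared genes with an annotated length. The GC content of these transcripts was 57.4%, 56.4%, 59.0%, 59.8% and 50.8%, against a median of 47.5%, and that of POLR2A was 56.3%. These genes were chosen on the same 12 libraries, so the likeness is a description.

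**Figure D5:**
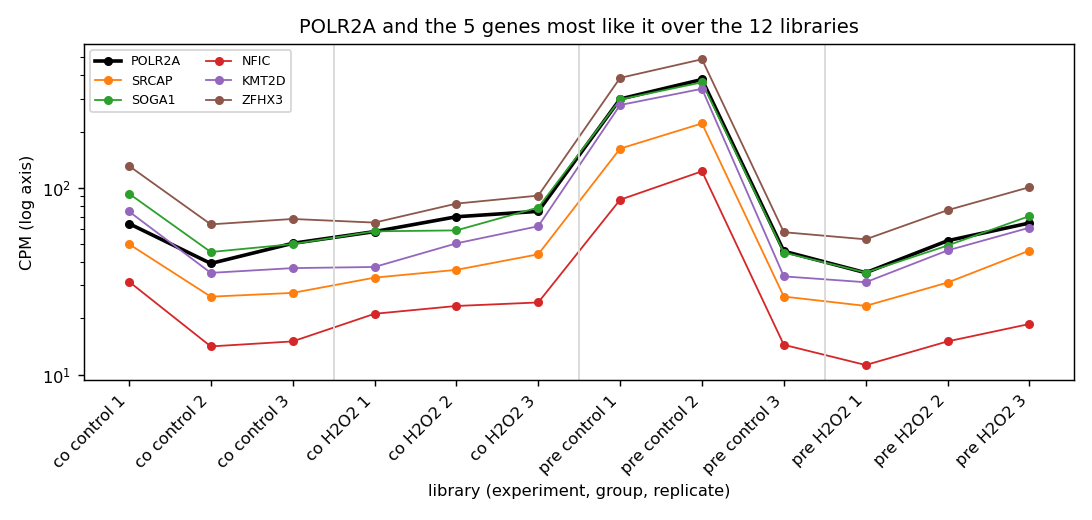
Level (CPM, log axis) of POLR2A and the 5 genes most like it in each of the 12 libraries, with lines that join the values of 1 gene. All 6 genes peak in pre-treatment control replicates 1 and 2, where SRCAP reaches 162 and 221 CPM and KMT2D 277 and 339 CPM.

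The wider transcription machinery was read from 6 lists, of which 144 of 148 genes were tested in each experiment. In the co-treatment experiment edgeR's quasi-likelihood test, its exact test and DESeq2 each called 0 of them, against 0.598%, 1.39% and 1.39% of all genes, with 5 genes (3.47%) at an unadjusted p below 0.05 by the quasi-likelihood test, against 8.15% of all genes. HEXIM1, the inhibitor of the elongation kinase P-TEFb, had the smallest adjusted p among elongation factors, with 46.1, 28.6 and 32.5 CPM in controls and 25.1, 23.0 and 24.4 CPM in treated libraries, a log2 fold change of -0.57 (standard error 0.17) and an edgeR adjusted p of 0.266. POLR1C, shared by RNA polymerases I and III, had the smallest among their subunits, with 17.4, 19.8 and 20.1 CPM in controls and 23.8, 27.3 and 25.7 CPM in treated libraries, a log2 fold change of 0.42 (standard error 0.13) and an edgeR adjusted p of 0.300. The 2 groups did not overlap for either gene, as was so for 13.9% of all genes. Both genes were picked for their adjusted p, which favours such a separation. The smallest edgeR adjusted p was 0.910 in the other Pol II subunits (POLR2J), 0.670 in the general transcription factors (GTF2H5), 0.471 in Mediator (CDK19) and 0.724 in the assembly factors (RUVBL1). The groups of CDK19 and RUVBL1 did not overlap either, while those of POLR2J and GTF2H5 did.

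Over all 6 pre-treatment libraries edgeR's quasi-likelihood test called 0 of the 144 list genes at an adjusted p below 0.05 with an absolute log2 fold change above 1, against 0.0242% of all genes, with 24 (16.7%) at an unadjusted p below 0.05, against 11.2% of all genes. The exact test and DESeq2 called 1 each, against 0.934% and 2.02% of all genes. The smallest quasi-likelihood adjusted p was 0.320 in general transcription factors (TAF6), Mediator (MED12), elongation factors (CTDSP2) and assembly factors (RPAP1). TAF6 was at 42.9, 62.5 and 38.1 CPM in controls and 26.3 to 30.4 CPM in treated libraries. CTDSP2 was at 144, 169 and 126 against 91.1 to 101 CPM, and RPAP1 at 54.3, 67.5 and 39.4 against 30.4 to 34.4 CPM. The groups of TAF6, CTDSP2 and RPAP1 did not overlap, as was so for 16.3% of all genes. Those of MED12 overlapped, as did those of POLR1A and POLR2J, first in the remaining lists. Without control replicate 3, where 2 libraries had to pass the filter and 26350 genes were tested, the quasi-likelihood test called 12 of 145 list genes and 11.2% of all genes, with 10 list genes lower and 2 higher in treated libraries, or 6.9% and 1.38%, against 8.23% and 2.98% of all genes. The calls fell on Mediator (3 lower of 33), the elongation and C-terminal domain factors (5 lower and 1 higher of 47), and 1 each in the Pol I and Pol III subunits (POLR1A, lower), the general transcription factors (TAF4, lower) and the assembly factors (UXT, higher).

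In Mediator, the coactivator that bridges transcription factors and polymerase, the genes called lower were MED14, MED12 and MED15. MED14, the backbone subunit, was at 142, 153 and 62.9 CPM in pre-treatment controls and at 64.4, 68.0 and 67.6 CPM in treated libraries. MED12, a kinase module subunit, was at 104, 116 and 48.4 CPM in controls and at 39.4, 43.6 and 49.5 CPM in treated libraries. In both, control replicates 1 and 2 were above and replicate 3 was near the treated libraries, the order seen for POLR2A. Both genes were picked by the fit without replicate 3, so the place of replicates 1 and 2 follows from that choice. Replicates 1 and 2 were the 2 highest for 25.3% of all genes. Among elongation and C-terminal domain factors, RPRD2, which binds the C-terminal domain, was at 97.2, 109 and 29.8 CPM in controls and at 29.1, 31.6 and 43.1 CPM in treated libraries. AFF1, a scaffold of the super elongation complex, was at 52.9, 48.2 and 19.1 CPM in controls and at 17.4, 21.1 and 17.0 CPM in treated libraries. CCNK was at 25.55, 32.1 and 7.78 CPM in controls and at 11.3, 10.9 and 12.8 CPM in treated libraries. Its control replicate 3 was thus below every treated library. ELL2, an elongation factor, was the only gene of that list called higher, at 0.447, 0.324 and 0.689 CPM in controls and 1.41, 1.01 and 1.19 CPM in treated libraries, which is low expression throughout.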

How the data were processed

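Ribosomal RNA-depleted total RNA was sequenced from 12 samples. The authors trimmed reads with cutadapt 2.10, checked them with FastQC 0.11.8, mapped them to hg19 with HISAT2 2.1.0 and made counts per gene symbol with HTSeq 0.7.2, per the labels and the submitters' processing notes, and deposited these counts without normalization. The strand setting and annotation version are not given in the sources used here. Deposited tables of the authors' own comparisons (fold changes, log CPM, p-values and FDR) were not used.

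The members and gene lists were chosen with earlier results of these data known. The software was edgeR 4.0.16 with TMM scaling, limma 3.58.1 and DESeq2 1.42.0 under R 4.3.3. Genes were tested where at least 3 libraries (as many as the smaller group held when a library was left out) reached the CPM of 5 reads in the smallest library, by edgeR's quasi-likelihood test within each experiment, with Benjamini-Hochberg adjustment over all genes, and called at an adjusted p below 0.05 with an absolute log2 fold change above 0.6 (co-treatment) or 1 (pre-treatment). All 10 members passed the filter in both experiments. Standard errors are the absolute log2 fold change divided by the square root of the quasi-likelihood F statistic. In pre-treatment they restate that statistic and are no evidence about the members. Scripts were tested on simulated data. CPM values were scaled within an experiment, and ratios, likeness and levels per kilobase over all 12 libraries. Gene positions, lengths of canonical transcripts and overlaps come from GENCODE version 44 lifted to GRCh37, and promoters from the RefSeq table of GRCh38.p14.

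Named genes were all members, POLR2J and POLR2L, the large subunits of the other polymerases, the genes of smallest adjusted p in each list and comparison (up to 3 called per direction) and the 5 genes most like POLR2A. No member had fewer than 427 reads in any library. The spread between replicates exceeded counting noise in every group (chi-square per degree of freedom of 27.6 or more). Alternatives were the exact test, DESeq2, other scalings, no filter, a replicate block and each library left out.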

Additional observations from a re-analysis of the deposited data

How the results depend on the processing

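The co-treatment count of 132 called genes became 307 with edgeR's exact test, 307 with DESeq2, 80 with library size alone and 443 without the filter, and ran from 18 (without treated replicate 3) to 218 (without control replicate 1), with 49 without control replicate 2 and 54 without treated replicate 2. No member was called in any of these. The pre-treatment count of 6 became 231 with the exact test, 501 with DESeq2, 1 with library size alone and 300 without the filter, and 0 to 2952 with 1 library left out, the highest without control replicate 3 and 0 without any other. Leaving out a control or treated library also lowered the filter to 2 libraries. On the genes that passed over all 6 libraries, an alternative chosen after seeing the data, the count without control replicate 3 was 2721, with 12 list genes and 1 member. The number of members called in pre-treatment moved from 0 to 1 (POLR2A) with DESeq2, without the filter and without control replicate 3, and ran from 0 to 1 over the libraries left out, but POLR2A was chosen on these libraries, so these counts are no evidence about it. List genes called in pre-treatment numbered 1 with the exact test, DESeq2 and no filter, and 0 to 12 over the libraries left out, with 12 without control replicate 3. Against control replicate 3 alone, an alternative chosen after seeing the data, the log2 fold change of POLR2A turned to 0.15 and the treated minus control log2 ratio of POLR2A to the other members turned from -2.12 to 0.41. In co-treatment, POLR2E turned to 0.0251 with library size alone, and with 1 library left out POLR2E ran from -0.184 to 0.115, POLR2G from -0.0419 to 0.18, POLR2H from -0.00516 to 0.126 and POLR2I from -0.24 to 0.0781. The cause of these changes was not tested.

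The replicate numbers did not pair the samples, since deviations from the group means of same-numbered libraries had correlations of -0.06, -0.07 and -0.07 in co-treatment and -0.23, 0.03 and -0.28 in pre-treatment. With the replicate number as a block, 180 genes were called in co-treatment and 0 in pre-treatment, and the log2 fold change of POLR2A was 0.42 and -1.94. The fewest reads of a member in any library were 427.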

Other observations

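Genes within 50 kb of POLR2A on chromosome 17 were looked up after the POLR2A values were seen. ZBTB4, a zinc finger repressor, was at 73.2, 79.4 and 54.6 CPM in pre-treatment controls and at 51.3, 54.4 and 46.9 CPM in treated libraries. All 3 controls were above all 3 treated libraries, but only by 54.56 against 54.41 CPM at the closest. The groups did not overlap for 16.3% of all genes. SENP3, a SUMO protease, was at 14.3, 13.3 and 28.4 CPM in controls and at 24.9, 23.1 and 22.3 CPM in treated libraries, with control replicates 1 and 2 the lowest. CHRNB1, a subunit of the muscle acetylcholine receptor, was at 26.2, 25.4 and 41.1 CPM in controls and at 35.5, 36.4 and 23.4 CPM in treated libraries. None of these neighbours had the several-fold excess of POLR2A in control replicates 1 and 2.

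POLR2KP1, a pseudogene of POLR2K, had 35, 45 and 1 reads in pre-treatment controls and 17, 6 and 21 in treated libraries, and 3 to 13 in the co-treatment libraries. Because of this near-identical copy the POLR2K counts are uncertain.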
